A study of Mus musculus with 15 samples.

Results

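The data described here are the 5 libraries of untrained mice, the group named CC, out of 15 libraries in a study of contextual fear conditioning. They were chosen by their label alone, and no library of the trained groups entered any step below. Each CC library held polyA-selected RNA from both hippocampi of 1 male C57BL/6J mouse 2 months of age. The mice had been handled on several days, had met neither the chamber nor the foot shock, and were dissected at the hour used for the trained animals. No transgene, deletion or drug is named for any of them. The libraries carry the names CC3, CC5, CC6, CC7 and CC8, and values below are given in that order. Each sequencing lane held 1 library of every group, so mouse, day of dissection and lane cannot be told apart among the CC libraries. The article and the series description differ in the numbers of animals and of days they give, so n counts libraries, and the spread reported here is that between 5 libraries.

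The hippocampus is a folded cortical structure that the brain needs to form memories of places and events. Its excitatory granule cells in the dentate gyrus and pyramidal cells in CA3, CA2 and CA1 are linked by glutamate synapses, and scattered GABA-releasing interneurons hold their firing in check. Astrocytes, myelin-forming oligodendrocytes, microglia and the cells of vessels, ventricle lining and meninges make up the rest of a dissected piece. In RNA from such a piece, fewer cells of a type and less RNA per cell cannot be told apart.

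Levels are given as TPM, which is the read count divided by the exonic length of the gene and scaled to the same sum in every library, and levels of different genes are compared only on this scale. Spread between libraries is described with read counts after upper-quartile scaling, called normalised counts, and with their coefficient of variation (CV). Errors after ± are SDs over the 5 libraries. The libraries held 57373714, 62555543, 39992029, 58399567 and 46173684 reads in genes. At least 1 read was found for 26832 of 37310 genes, and 20929 genes had a read in every library. A mean of more than 10 reads, the limit for the tests below, was reached by 17953 genes, among them 15504 of the 22380 protein-coding genes. At the depth of the shallowest library, 22890 to 23367 genes were expected with a read. A level above 1 TPM was reached by 16482 genes, above 10 TPM by 10263, above 100 TPM by 1870 and above 1000 TPM by 80.

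The labels were checked first. The Y-linked genes Eif2s3y and Ddx3y stood at 36.6 ± 2.24 and 20.3 ± 2.65 TPM, while Xist, the RNA of the inactive X chromosome of females, stayed at or below 0.0645 TPM. All 12 pan-neuronal genes lay above 100 TPM. Prox1, which marks dentate granule cells, ranged from 24.4 to 33 TPM, and the CA1 gene Wfs1 from 113 to 173 TPM. Transthyretin (Ttr), made in bulk by choroid plexus, stood at 28.1, 51.7, 54.2, 55.9 and 39.2 TPM. Of the 19 genes listed for choroid plexus, 8 lay above 1 TPM, 4 above 10 TPM and 1 above 100 TPM, with a median of 0.697 TPM. Kcnj13, Slc4a5 and Tmem72 were among its low members, at 0.283, 0.152 and 0.0755 TPM on average.

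Reads were spread over many genes. The 10 genes with most reads took 5.19% to 5.75% of a library, the 100 genes with most reads 17.8% to 18.3%, and the 1000 genes with most reads 49.2% to 50.1%. Nuclear protein-coding genes took 93% to 93.9% and the mitochondrial genome 4.25% to 4.94%. Gene models annotated as microRNAs took 0.0483% to 0.139%, with the highest share in CC7.

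Of the 20 nuclear genes with the highest mean level, 3 were gene models shorter than a sequencing read. Fth1, the heavy chain of the iron store ferritin, led the others with 6667, 6881, 7280, 6410 and 7752 TPM. Cpe, the carboxypeptidase that trims prohormones in secretory granules, followed with 4138, 3942, 4286, 3909 and 4018 TPM. The lowest value of Fth1 lay above the highest value of Cpe, so their order held in every library.

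Neuronal calcium signalling filled several of the next places. Neurogranin (Nrgn), a postsynaptic protein that binds calmodulin, stood at 3026 ± 233 TPM, and the calmodulin genes Calm2 and Calm3 at 2755 ± 138 and 2607 ± 168 TPM. Camk2a, the alpha subunit of calcium/calmodulin-dependent kinase II, stood at 1973, 1821, 1869, 1892 and 2173 TPM, and its partner Camk2b at 583 ± 57.5 TPM. Camk2a was 3.35 ± 0.149 times as high as Camk2b, and 2.27 ± 0.101 times as high when the longest transcript of each gene set the length.

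Secreted products known from astrocytes were as prominent. Cystatin C (Cst3) stood at 2500 ± 223 TPM and apolipoprotein E (Apoe) at 2260 ± 115 TPM. Prosaposin (Psap), a lysosomal protein made by many cell types, stood at 1956 ± 84.1 TPM. The other ordinary genes among the 20 were Ncdn, Atp1b1, Eef1a1, Aldoa, Rplp1, Hsp90ab1, Sepw1 and Cfl1, with means from 1940 TPM for Cfl1 to 2540 TPM for Ncdn. They serve tasks such as the sodium pump (Atp1b1), translation (Eef1a1, Rplp1), glycolysis (Aldoa), protein folding (Hsp90ab1) and actin turnover (Cfl1).

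The 3 short models are shown because their rank rests on their length. They lie on the plus strand of NCBIM37 (mm9) at chr7:152100376-152100446 (AC161763.1, 71 bases), chr16:11144218-11144274 (mmu-mir-689-2, 57 bases) and chr5:147072579-147072660 (AC113316.1, 82 bases), and all 3 are annotated as microRNA genes. In the first, capitals mark the 49 bases that it shares with the start of Bc1 in RefSeq (GRCm38.p6). Only the first 50 bases of Bc1 were compared, so the lower-case bases of AC161763.1 were not compared with Bc1. The other sequences carry no capitals.
AC161763.1: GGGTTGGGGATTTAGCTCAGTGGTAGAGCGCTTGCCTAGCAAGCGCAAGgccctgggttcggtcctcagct
mmu-mir-689-2: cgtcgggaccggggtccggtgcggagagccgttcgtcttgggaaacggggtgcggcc
AC113316.1: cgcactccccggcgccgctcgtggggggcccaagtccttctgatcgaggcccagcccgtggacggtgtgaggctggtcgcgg
Bc1 is a short noncoding RNA of neurons that is carried into dendrites, and RefSeq starts it 1 base before the shared stretch. The whole sequence of AC161763.1 occurs 16 times in mm9, that of mmu-mir-689-2 3 times and that of AC113316.1 once. AC161763.1 drew 9807, 25707, 16285, 17547 and 17008 reads. The counts of mmu-mir-689-2 were 6806, 7071, 3514, 31021 and 6489 and those of AC113316.1 were 3269, 3307, 1599, 17090 and 2965. Divided by lengths below 100 bases, these counts gave means of 14300, 10610 and 3767 TPM, which are not comparable with the levels of genes longer than a fragment. Without CC7 the last pair of means was 6237 and 2018 TPM. CC7 stood far above the other libraries for mmu-mir-689-2 and AC113316.1, and CC3 lay below the others for AC161763.1.

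**Figure D1:**
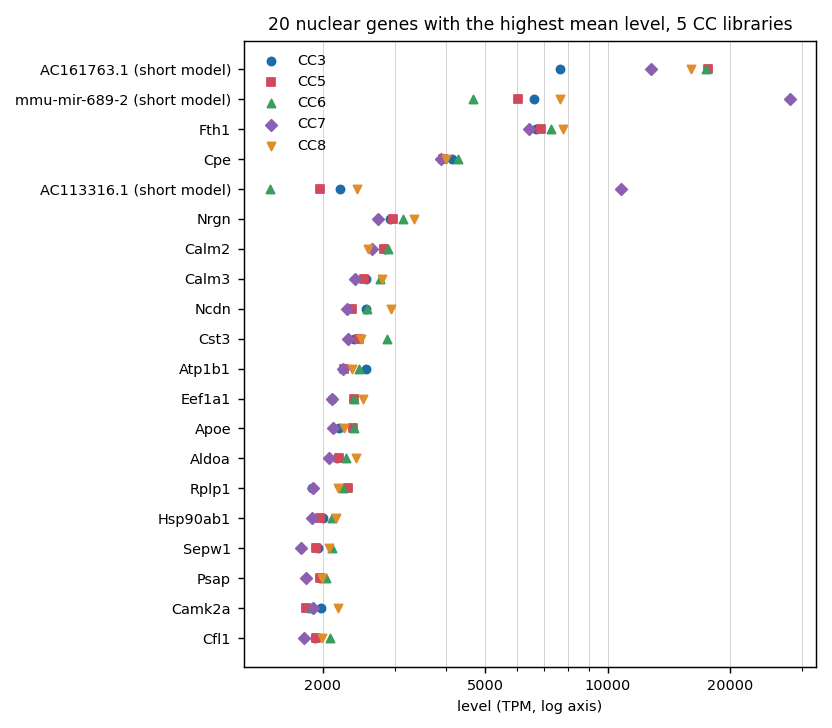
Levels of the 20 nuclear genes with the highest mean, in TPM on a log axis, with 1 point per library. The ordinary genes lie in tight groups, up to 7752 TPM for Fth1, while the short models scatter widely, with CC7 at the top for mmu-mir-689-2, at 28120 TPM, and for AC113316.1.

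The 3 highest mean levels of all were those of mitochondrial transcripts. mt-Co1, a catalytic subunit of cytochrome c oxidase, stood at 29640 ± 1979 TPM, mt-Cytb of complex III at 19170 ± 816 TPM and mt-Nd1 of complex I at 15540 ± 981 TPM. The other oxidase subunits mt-Co2 and mt-Co3 stood at 35.8 ± 40.6 and 27.6 ± 33.7 TPM, and the ATP synthase subunits mt-Atp6 and mt-Atp8 at 31 ± 26 and 3.10 ± 2.07 TPM. Without CC8 the means of mt-Co2, mt-Co3 and mt-Atp6 were 17.7, 12.6 and 19.4 TPM. Of the 100-base windows of mt-Co2, mt-Co3, mt-Atp6 and mt-Atp8, 100% occurred again in mm9, against 30.8% for mt-Co1 and 0% for mt-Cytb and mt-Nd1. The deposited counts hold only reads with a single place in the genome, so the low values are not levels of these transcripts.

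Glutamate receptors open the cell at excitatory synapses. AMPA receptors carry the fast current, NMDA receptors admit calcium when the cell is already depolarised, kainate receptors tune transmission, and metabotropic receptors act through G proteins. Gria1 stood at 651, 615, 609, 602 and 689.7 TPM and Gria2, the subunit that blocks calcium entry, at 296, 241, 230.3, 253 and 232 TPM. Gria3 and Gria4 stood at 63.4 ± 5.12 and 28.3 ± 3.10 TPM. None of the neighbouring ranges overlapped, and Gria1 was 2.55 ± 0.292 times as high as Gria2.

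Among NMDA subunits, the obligatory Grin1 stood at 123, 112, 114, 111 and 125 TPM, and at 230.1 TPM on average with the longest transcript. Grin2c, Grin2d and Grin3a followed with 42.8 ± 1.83, 14.3 ± 0.547 and 9.06 ± 1.20 TPM. Grin2a stood at 4.59, 5.53, 3.45, 4.84 and 3.98 TPM and Grin2b at 3.17, 4.61, 2.70, 3.50 and 2.80 TPM. Grin2a was above Grin2b in all 5 libraries, but their ranges overlapped. Of the 100-base windows of Grin2a, 48.3% occurred again in mm9, against 0% for Grin2b, Grin2c and Grin2d. The level of Grin2a and its place in this order are therefore uncertain. The order of all these subunits is that of uniquely placed reads per exonic length. It was not checked against a measure other than these counts. The exonic bases of Grin2c and Grin2d were 62% and 65.1% G or C, against 51.3% and 51.1% for Grin2a and Grin2b.

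Base composition and level moved together across genes. Nuclear protein-coding genes with a mean of more than 10 reads were split into 5 groups of equal size by the G and C share of their exonic bases. The median level was 12.9 TPM in the lowest group (30.3% to 44.4% G or C), then 15.7, 18.1 and 19.2 TPM, and 23.5 TPM in the highest (55.8% to 76.5%). The group lowest in G and C had medians of 13.9, 13.2, 12.3, 13 and 12.2 TPM in the 5 libraries, and the highest group 24.1, 23.2, 23.4, 22.4 and 23.6 TPM. The part of base composition in the order of the NMDA subunits was not tested.

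The kainate subunit Grik5 stood at 282, 269, 281, 269 and 309.9 TPM, and Grik4 and the delta subunit Grid1 at 42.2 ± 6.60 and 41.5 ± 1.48 TPM. Grik5 lay apart from both, and the ranges of Grik4 and Grid1 overlapped. Several auxiliary proteins that escort or cluster these receptors were abundant. Cnih2, a cornichon that travels with AMPA receptors, stood at 1149, 1090, 1212, 1139 and 1352 TPM. The secreted pentraxin Nptx1 stood at 481 ± 66.2 TPM, and the transmembrane AMPA receptor regulatory protein Cacng8 at 338 ± 20.5 TPM. Of the 16 auxiliary genes, 15 lay above 10 TPM.

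Of 8 metabotropic receptors, Grm5 and Grm2 led with 74.1 ± 9.43 and 71.7 ± 6.18 TPM and overlapping ranges. Grm3 stood at 40.9 ± 1.58 TPM and Grm7 at 26.3 ± 1.12 TPM, each apart in range from its neighbours. Grm6, a receptor of the retina, was at 0.00384 TPM. The postsynaptic scaffold Dlg4 (PSD-95) stood at 555 ± 31.3 TPM.

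GABA-A receptors are chloride channels that carry most fast inhibition. Gabra5, known for its place outside synapses in the hippocampus, led the family with 218, 203, 214, 211 and 246 TPM. Gabra4, Gabra2, Gabrb2 and Gabra3 lay between 51.5 and 66.1 TPM on average. Gabrd, the delta subunit known from dentate granule cells, stood at 32.6, 38.3, 39.3, 33.5 and 40.6 TPM. Gabra6, a subunit of the cerebellum, had no read in any library, and 11 of the 19 subunits lay above 10 TPM.

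The G-protein-coupled GABA-B receptor subunits Gabbr1 and Gabbr2 stood at 323 ± 7.50 and 184 ± 15.4 TPM. The potassium-chloride cotransporter Slc12a5, which keeps chloride low in neurons, stood at 276, 245, 257, 252 and 254 TPM, and the chloride importer Slc12a2 at 32.7, 26.2, 23.7, 29.2 and 24.9 TPM. Slc12a5 was 9.50 ± 1.02 times as high as Slc12a2, and higher in every library.

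**Figure D2:**
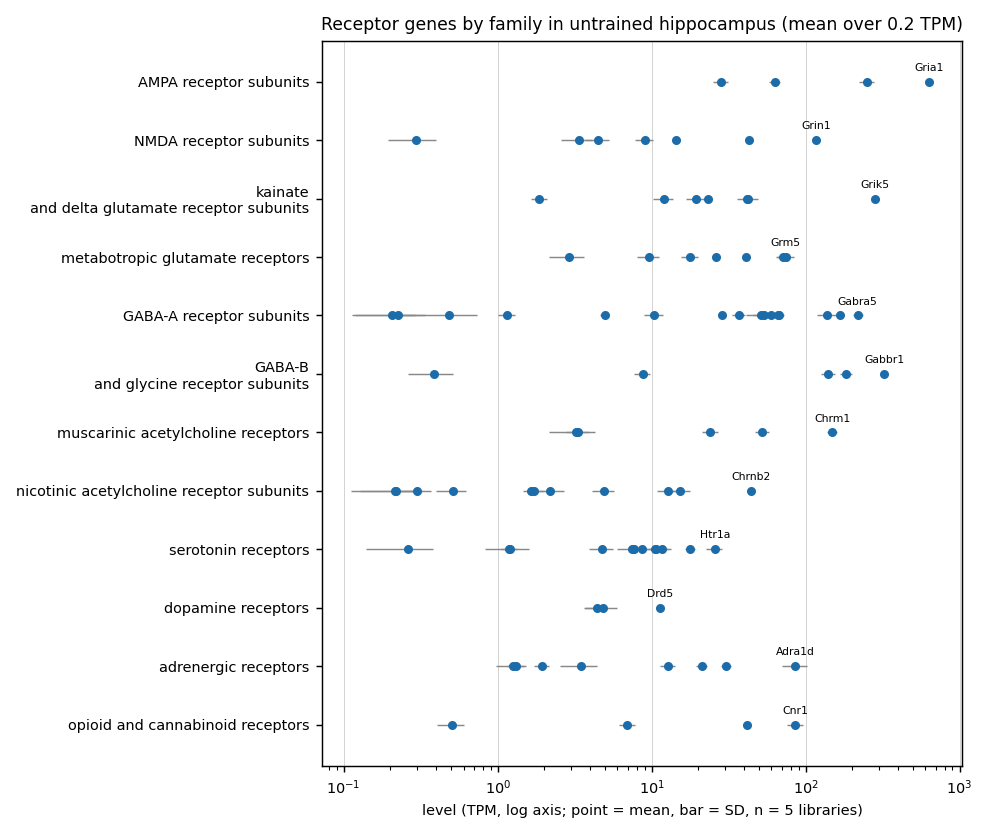
Mean level in TPM on a log axis for receptor genes by family (members with a mean above 0.2 TPM), with the SD over 5 libraries as a bar and the leading member of each family named. Gria1 reaches 633 TPM, while the leading dopamine receptor, Drd5, stands at 11.4 TPM.

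Receptors of the modulatory systems were mostly lower. The muscarinic acetylcholine receptors Chrm1, Chrm3 and Chrm4 stood at 149 ± 11, 52.3 ± 5.33 and 24 ± 2.85 TPM, with no overlap between them. The leading nicotinic subunits were Chrnb2, Chrna4 and Chrna7, at 44.4 ± 1.83, 15.3 ± 2.47 and 12.7 ± 1.94 TPM, and they were the 3 of 16 above 10 TPM.

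Among serotonin receptors, Htr1a, which inhibits pyramidal cells, stood at 30.1, 23.9, 22.6, 27.6 and 24.4 TPM, and Htr3a, the ion-channel receptor of interneurons, at 17.8 ± 1.40 TPM. Htr1a lay above Htr3a without overlap. The dopamine receptor Drd5 stood at 11.5, 10.3, 12, 11.2 and 12 TPM and Drd1a and Drd2 at 4.81 ± 1.17 and 4.39 ± 0.692 TPM. Of the exonic bases of Drd5, 49.5% overlap another gene, where reads can be lost as ambiguous.

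The adrenergic receptor Adra1d stood at 90.2, 68.8, 79.8, 80.0 and 111 TPM, and Adra2c and Adrb1 at 30.4 ± 2.27 and 21.2 ± 1.75 TPM. The adenosine receptor Adora1, which damps transmitter release, stood at 131 ± 10.2 TPM, and the cannabinoid receptor Cnr1 at 102, 78.4, 76.7, 88.3 and 83.5 TPM. Adra1d lay apart from the other adrenergic receptors and varied between libraries, as described below. Of the opioid receptors, the nociceptin receptor Oprl1 stood at 41.9 ± 1.28 TPM, Oprd1 at 6.93 ± 0.811 TPM and Oprm1 at 0.0856 ± 0.0281 TPM.

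Of 34 peptide receptors, 11 lay above 10 TPM. Ntsr2, a neurotensin receptor of astrocytes, led with 243, 241, 259, 232 and 247 TPM, and Adcyap1r1, the receptor of the peptide PACAP, stood at 122 ± 2.31 TPM. The neuropeptide Y receptor Npy2r and the somatostatin receptor Sstr4 followed at 49.4 ± 7.51 and 44 ± 4.93 TPM with overlapping ranges.

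Among nuclear receptors, the thyroid hormone receptor Thra stood at 617, 621, 659, 579 and 649 TPM. The mineralocorticoid receptor Nr3c2 stood at 93.9, 94.2, 91.5, 97.4 and 103 TPM and the glucocorticoid receptor Nr3c1, which binds corticosterone with lower affinity, at 35.2, 34, 30.7, 36.7 and 28.9 TPM. Nr3c2 was 2.92 ± 0.372 times as high as Nr3c1 and higher in every library. The neurotrophin receptor Ntrk2 (TrkB) stood at 113 ± 6.79 TPM, and its ligand Bdnf at 23.9 ± 2.01 TPM.

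Ion channels set how neurons fire. The auxiliary sodium channel subunits Scn2b and Scn3b stood at 212 ± 12.2 and 198 ± 9.47 TPM, and the pore subunits Scn8a and Scn2a1 at 118 ± 6.11 and 86 ± 7.30 TPM. The pore subunit Scn1a, prominent in fast-spiking interneurons, stood at 21.7 ± 2.98 TPM, and the muscle subunit Scn4a at 0.0476 TPM. Among calcium channel genes, the auxiliary subunits Cacnb3 and Cacnb1 led with 271 ± 16.4 and 116 ± 3.73 TPM.

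Of 40 voltage-gated potassium channel pore genes, 23 lay above 10 TPM. Of these, Kcnh3 stood at 108 ± 3.02 TPM. The auxiliary subunit Kcnab2 stood at 503, 442, 504, 470 and 530.1 TPM. The inward rectifiers Kcnj10 and Kcnj4 and the tandem-pore channel Kcnk1 had overlapping ranges, at 115 ± 5.22, 114 ± 8.90 and 115 ± 6.89 TPM. Hcn2, a channel opened by hyperpolarisation, stood at 144 ± 5.02 TPM.

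Neuropeptide genes ranged widely. Somatostatin (Sst), a product of dendrite-targeting interneurons, stood at 1088, 1146, 1160, 1028 and 1065 TPM. Cholecystokinin (Cck) stood at 896, 954, 1008, 906 and 959 TPM and neuropeptide Y (Npy) at 201, 216, 234, 205 and 266 TPM. Sst lay above Cck and Cck above Npy with no overlap. Grp and Penk followed at 60.4 ± 8.48 and 55.3 ± 9.00 TPM with overlapping ranges, and 16 of the 34 precursors lay above 10 TPM. The hypothalamic peptides Oxt and Pmch were at 0.659 and 0.232 TPM.

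Genes of the granules that store peptides were high as a group, with all 13 above 10 TPM and 9 above 100 TPM. After Cpe, chromogranin B (Chgb) stood at 869 ± 70.7 TPM, Pcsk1n at 596 ± 28.2 TPM and secretogranin 3 (Scg3) at 386 ± 16.6 TPM. Of 30 genes listed as growth factors, Nrn1 (neuritin) led with 416 ± 30.5 TPM, and the secreted pleiotrophin (Ptn) stood at 138 ± 9.45 TPM. Fgf13, a member of the FGF family that stays inside the cell and binds sodium channels, stood at 168 ± 10.2 TPM.

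Markers of the main cell classes were found in every library. The vesicular glutamate transporter Slc17a7 stood at 1831, 1661, 1850, 1738 and 2045 TPM, and Slc17a6, the form used in thalamus and subiculum, at 15.1, 15.9, 13.6, 13.7 and 5.29 TPM. The GABA-synthesising enzymes Gad1 and Gad2 stood at 124 ± 4.47 and 64.8 ± 5.06 TPM, a ratio of 1.92 ± 0.0999, which was 3.98 ± 0.207 with the longest transcript. Sst was 12 ± 0.649 times as high as parvalbumin (Pvalb), the marker of fast-spiking basket cells.

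Astrocytic Glul (glutamine synthetase) stood at 1268 ± 19.4 TPM and Gfap, the astrocyte filament protein, at 313, 309, 315, 299 and 362 TPM. The myelin gene Mbp stood at 882 ± 18.4 TPM. The microglial complement genes C1qb and C1qa stood at 118 ± 7.51 and 115 ± 3.46 TPM, and the endothelial junction gene Cldn5 at 113 ± 11.1 TPM.

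The hippocampal subfields also had clear marker levels. For CA1, Mpped1 stood at 216, 202, 208, 200.5 and 145 TPM and Wfs1 at 153, 156, 173, 141 and 113 TPM. Pou3f1, listed for CA1, had no read, and 100% of its exonic bases overlap another gene in the annotation. For CA3, Bok stood at 174, 152, 177, 157 and 220.5 TPM, and for the dentate gyrus C1ql2 at 172, 176, 192, 170.1 and 238 TPM and Prox1 at 31.7, 25.6, 24.4, 33 and 32.4 TPM. CC8 was lowest for both CA1 genes and highest for Bok and C1ql2.

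Genes that neurons switch on with activity were present in these handled mice. Egr1 stood at 159.9, 105, 111, 99.5 and 91.3 TPM, Arc, which acts at synapses, at 104, 65.3, 80.6, 78.5 and 95.7 TPM, and Npas4 at 20.3, 9.79, 12.3, 8.86 and 6.31 TPM. Fos, the usual mark of recently active cells, stood at 9.50, 6.19, 6.23, 6.52 and 5.55 TPM. CC3 was the highest library for all 4. Of the 41 listed immediate early genes, 29 lay above 10 TPM and 2, Egr1 and Jun, above 100 TPM.

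The 5 libraries were then compared with each other. The median CV was 6.19% over the 13811 genes with a mean of more than 100 reads, with 4.33% and 9.05% at the quartiles. The biological coefficient of variation over all 17953 tested genes, estimated by edgeR, was 0.0791, and it was 0.0707 without CC8. Between pairs of libraries the chi-square of counts per degree of freedom was 8.47 to 19, so no pair agreed within sampling noise. By edgeR goodness of fit at an FDR of 0.01, 8493 genes (47.3%) varied more than counting error and 248 genes (1.38%) varied more than the trend for their abundance. The 248 are called variable below, and p-values here measure the spread between these 5 libraries.

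**Figure D3:**
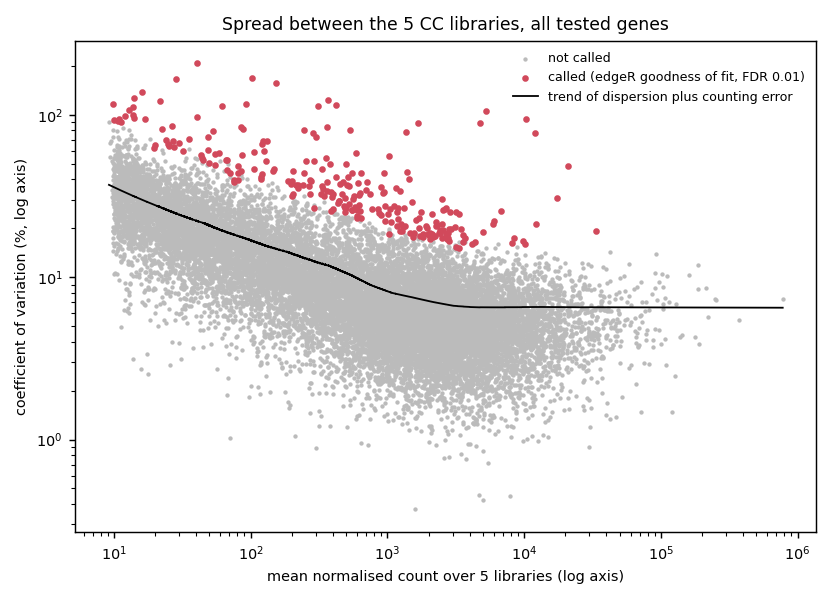
CV in percent against the mean normalised count, both on log axes, for all 17953 tested genes, with the 248 variable genes in red. The line is the trend of dispersion with counting error added, and the red points lie above it.

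The lowest CVs lay below what counting alone gives. Of genes with a mean of more than 1000 reads, Cmtm6, a membrane protein, had the lowest CV, with 1600, 1603, 1588, 1600 and 1598 normalised counts and a CV of 0.372%, where counting error alone gives 2.48%. Arl1, a small GTPase of the Golgi, and Pdha1, a subunit of pyruvate dehydrogenase, had CVs of 0.425% and 0.446%, against 1.4% and 1.12% from counting. Copg2, Bcat1, Zc3h4, Enoph1, Wbp4, Psmc6 and Fbf1 completed the 10 lowest, up to 0.846%. These genes were picked as the lowest of many, so their order is not a measure of how steady each is.

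Of the 168 tested receptor genes and their auxiliary proteins, 6 (3.57%) were variable, and of the 187 tested channel and pump genes 5 (2.67%) were, against 1.38% of all tested genes. These shares were not tested against each other. The called genes were Nptxr, Grm8, Adra1d, Gabra3, Rxfp1 and Shisa6 among the former and included Atp2b4, Dpp10 and Kcna2 among the latter. Rxfp1, a relaxin receptor, had 274, 217, 184, 249 and 74.6 normalised counts and was not called without CC8, nor were Atp2b4 and Dpp10. Shisa6 was not called without CC5, CC6 or CC8, nor with the total count alone or with more than 10 reads asked in every library. In the lists of AMPA, NMDA, kainate and delta, GABA-B and glycine, nicotinic, muscarinic, serotonin and dopamine receptors and of sodium and calcium channels, no gene was called by edgeR in all 5 libraries, where 1241 of the 17953 tested genes had an unadjusted p under 0.05. Gabra3 was called, with 3741, 4032, 3504, 3594 and 2260 normalised counts, as was Grm8, with 389.6, 448, 431, 444 and 214. Both were lowest in CC8, and neither was called without CC8. Adra1d was called, with 2795, 2219, 2627, 2620 and 3621, but not without CC5 or without CC8. Kcna2, a potassium channel of axons, had 546, 498, 271, 739 and 334 normalised counts (FDR = 3.39e-08, edgeR goodness of fit) and stayed called in each of the 5 fits that left out a library. Nptxr, a neuronal pentraxin receptor, had 1657, 2339, 2367, 2957 and 3394 and also stayed called, but 81.5% of its exonic bases overlap another gene.

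Most calls did not survive leaving out every library in turn. Of the 248 genes, 18 were called in all 5 such fits, and 214 were called under every other normalization and filter. Leaving out CC8 ended 117 calls and leaving out CC5 ended 101, against 62, 42 and 39 for CC3, CC6 and CC7. Of the 248 genes, 112 were highest in CC5 and 112 were lowest in CC8. Among all tested genes, CC5 was the highest library for 21.4% and CC8 the lowest for 22.2%.

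CC5 stood apart in Trh and in genes of the meninges, blood and smooth muscle. Trh, the precursor of thyrotropin-releasing hormone, had 37, 409, 27.6, 19.6 and 16.1 normalised counts and a CV of 169%, and it was not called without CC5. Its mean level was 4.34 TPM, and 1.07 TPM without CC5. Prostaglandin D synthase (Ptgds), made by meninges and oligodendrocytes, had 15022, 38683, 17831, 17608 and 14911 (FDR = 1.51e-32, edgeR goodness of fit) and was also not called without CC5. Of the 16 genes of the meningeal fibroblast list, 16 were highest in CC5 and 10 were called, against 21.4% and 1.38% of all tested genes. Without CC5, 2 (Dcn and Nov) were called, and without CC3, 7 were. Nov had 7896 normalised counts in CC5 and 7793 in CC3, and it lost its call only without CC8. The list was written with earlier results of these data known. Its summed level was 929, 1848, 979.6, 963 and 779.5 TPM, with CC5 far above the rest. The list's variable genes were Ptgds, Dcn, Aebp1, Slc22a6, Col3a1, Col1a2, Slc13a4, Slc6a13, Nov and Igf2.

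All 7 tested genes of the blood list were also highest in CC5, against 21.4% of all tested genes. Of the 7, 4 were called, Hbb-b1, Hba-a2, Hba-a1 and Hbb-b2, against 1.38% of all tested genes. Hbb-b1, a beta globin, had 923, 2469, 1222, 1199 and 1114 normalised counts. No gene of the list was called by edgeR without CC5. The list's summed level was 158, 411, 218, 194 and 199 TPM. For Hba-a1 and Hba-a2, 84.3% and 78.3% of the 100-base windows occurred again in mm9, so their counts are uncertain. Of 10 genes of pericytes and smooth muscle, 6 were highest in CC5 and 4 were called, against 21.4% and 1.38% of all tested genes. All 4 called genes were smooth muscle genes, and no pericyte gene of the list was called. Without CC5, 1 of the 10 was called. Smooth muscle actin (Acta2) had 999, 2368, 1619, 1175 and 1030 and stayed called without any 1 library. Of 16 endothelial genes, 7 were highest in CC5 and none was called by edgeR, against 21.4% and 1.38% of all tested genes. The endothelial list had a summed level of 1273, 1361, 1399, 1272 and 1303 TPM, with the highest value in CC6.

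Genes induced by interferon were high in the same library. Of 20, 18 were highest in CC5 and 3 were called, Oasl2, Ifit1 and Ifit3, against 21.4% and 1.38% of all tested genes. Ifit3 had 252, 499.7, 351, 270.5 and 250.2 normalised counts. No gene of the list was called by edgeR without CC5 or without CC3. The list's summed level was 165, 203, 172, 161 and 161 TPM. The part of the meningeal and blood genes in this pattern was not tested.

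CC8 stood apart in genes that mark neocortex and subiculum. Of the 14 genes of that list, 10 were lowest in CC8 and 6 were called, against 22.2% and 1.38% of all tested genes. None of the 14 was called by edgeR without CC8. Ctgf, a gene of the deepest cortical layer, had 483, 537, 492, 464 and 115 normalised counts, and Tshz2 had 383, 428, 415, 453 and 117. Slc17a6 had 1063, 1168, 1017, 1022 and 391 (FDR = 1.42e-15, edgeR goodness of fit). In all 3 the CC8 value lay well below the other 4 libraries, which were close together. The thalamus and habenula list, which holds Slc17a6, did not stand apart in CC8 as a whole, with a summed level of 184, 198, 182, 165 and 191 TPM. Of its 13 genes, 6 were lowest and 3 highest in CC8, and 2 were called, Calb2 and Slc17a6, against 0 without CC8 and 1 without CC7 (edgeR).

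CC6 was the highest library for 6 of 10 striatal genes, against 23.7% of all tested genes. The striatal genes Ppp1r1b and Pde10a, at 35 ± 2.25 and 17.9 ± 1.78 TPM, were not called.

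Subfield markers also differed in CC8. Nov, which is on both the CA1 and the meningeal list, had 7793, 7896, 7464, 6987 and 3740 normalised counts and was not called without CC8. For CA3, 4 of 6 genes were highest in CC8, and for the dentate gyrus 5 of 7, against 26.1% of all tested genes. No gene of these 2 lists was called by edgeR with all 5 libraries, and 1 CA3 gene, Coch, was called without CC8. Without CC6, 2 CA3 and 2 dentate genes were called, and without CC7, 1 of each list. Relative to its mean over the 5 libraries, the average gene stood in CC8 at 0.806 times for CA1, 1.19 times for CA3 and 1.18 times for the dentate gyrus. Prox1 was highest in CC7, with 2350 normalised counts against 2296 in CC8. CC8 was also highest for 6 of 9 glutamatergic neuron genes and 9 of 16 AMPA and kainate receptor auxiliary genes. It was highest for 2 of 12 pan-neuronal and 3 of 15 GABA-A receptor genes.

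Of 10 genes of ciliated ependyma, which lines the ventricles, 9 were highest in CC8 and 8 lowest in CC7, against 22.4% of all tested genes for the latter. Their summed level was 78.7, 74.2, 80.8, 59.3 and 97.2 TPM, and Foxj1, the regulator of motile cilia, stood at 12.6, 11.6, 12.4, 11.4 and 15.9 TPM. None of the 10 was called by edgeR, where 1.38% of all tested genes were.

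**Figure D4:**
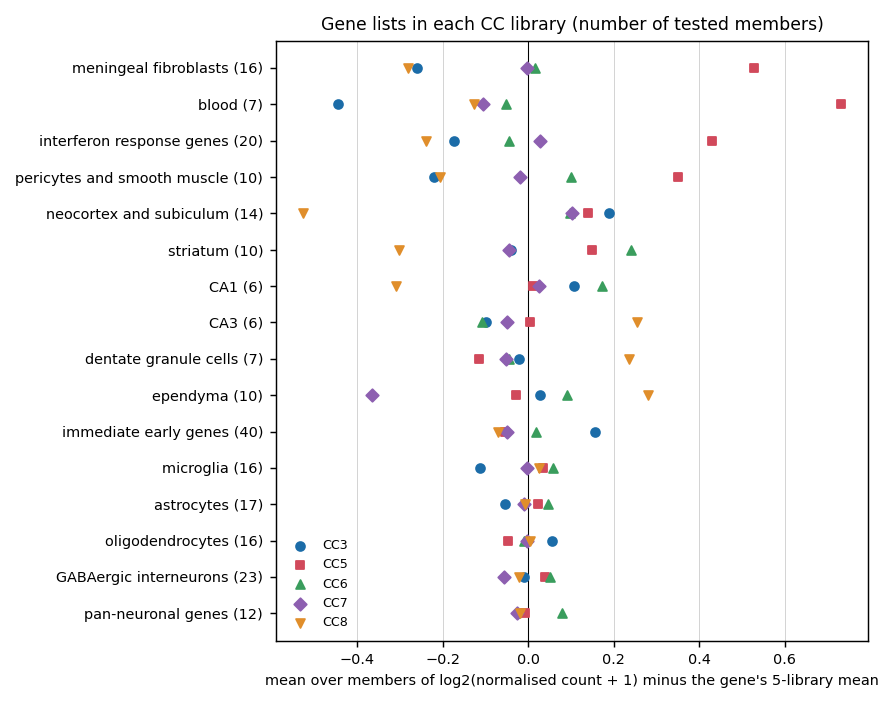
For 16 gene lists, the mean over tested members of log2(normalised count + 1) minus each gene's mean over the 5 libraries, with 1 point per library and the number of tested members in brackets. CC5 lies to the right for meningeal, blood and interferon genes, and CC8 to the left for cortical genes and to the right for CA3, dentate and ependymal genes.

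CC8 also held more reads of 4 mitochondrial genes, mt-Co2, mt-Atp6, mt-Co3 and mt-Nd4l, all of whose 100-base windows recur in mm9. mt-Co2 had 212, 181, 234, 194 and 1271 normalised counts and mt-Co3 had 229.9, 138, 163, 134 and 1178. The chromosome 1 gene Gm10925, with 405, 321, 309, 338 and 1305, was also highest in CC8, and 100% of its 100-base windows occur again in mm9. mt-Atp8, whose windows all recur too, had 22.5, 8.30, 6.60, 8.90 and 6.90 and was highest in CC3. None of the 4 variable mitochondrial genes was called by edgeR without CC8, and the mitochondrial share of all reads did not follow them, since it was lowest in CC8.

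CC7 was the highest library for several of the most variable genes. Besides mmu-mir-689-2 and AC113316.1, 1 of the 7 tested gene models named 7SK, after a nuclear RNA that holds back transcription elongation, had 44.2, 45.4, 31.5, 578 and 62 normalised counts. Of its 100-base windows 61.2% occurred again in mm9, and none of the other models of that name was called. AY036118 had 3084, 2576, 2527, 12218 and 3305, and Lars2, annotated as the leucyl-tRNA synthetase of mitochondria, 9018, 7086, 6489, 28455 and 9009. Whether the reads counted for these gene models come from the genes' own transcripts was not tested. CC7 was highest for 13.8% of all tested genes and for 49 of the 248 variable ones. Lars2, mmu-mir-689-2 and AC113316.1 stayed called without any 1 library, while that 7SK model and AY036118 were not called without CC7.

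CC3 was the highest library for 19 of 40 tested immediate early genes, against 15% of all tested genes. The variable ones were Arc, Nr4a1, Nr4a2, Egr1 and Npas4, and 1 gene of the list, Nr4a2, was called without CC3 but not without CC8. Npas4 had 1087, 544, 698, 500.1 and 355 normalised counts (FDR = 3.88e-13, edgeR goodness of fit), and Fos had 364, 247, 254, 264 and 224 and was not called. A high share for CC3 was not particular to this list. CC3 was highest for 6 of 12 sodium channel, 7 of 15 GABA-A receptor and 8 of 19 circadian clock genes. It was highest for 1 of 12 pan-neuronal and 5 of 37 voltage-gated potassium channel pore genes. CC3 was also the lowest library for 12 of 16 microglial genes, against 22.7% of all tested genes. None of the 16 was called by edgeR, where 1.38% of all tested genes were. This was not particular to microglia, since CC3 was lowest for 10 of 16 endothelial, 9 of 17 astrocyte, 9 of 16 meningeal and 6 of 7 blood genes. It was lowest for 5 of 10 pericyte and smooth muscle, 5 of 16 choroid plexus, 2 of 9 oligodendrocyte precursor, 1 of 16 oligodendrocyte and 0 of 10 ependymal genes.

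Some variable genes followed none of these lists. Col6a4, a collagen gene, had 292, 510.5, 19.7, 528 and 164 normalised counts, with the lowest value in CC6. Hipk2, a kinase, had 918, 887, 476, 1389 and 841, and Ide, a protease that degrades insulin, had 2303, 2286, 3568, 3740 and 2431. All 3 stayed called without any 1 library. Hipk2 and Ide were chosen after their values were seen.

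**Figure D5:**
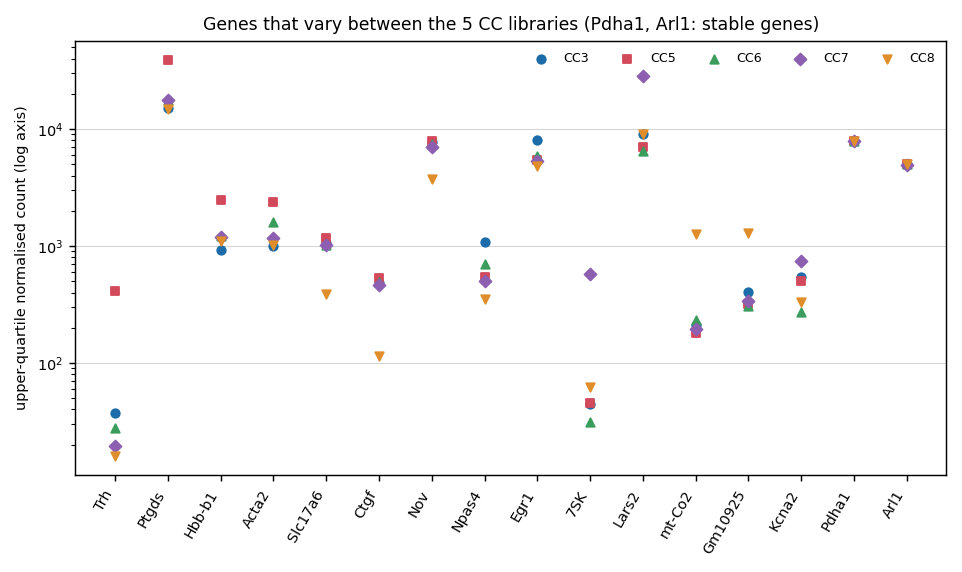
Normalised counts on a log axis for variable genes and 2 steady ones, with 1 point per library. CC5 stands alone for Trh and Ptgds, CC8 for Slc17a6, Ctgf and mt-Co2, and CC7 for 7SK and Lars2, while the 5 points of Pdha1 and Arl1 fall on each other.

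The spread also differed between classes of genes. The median CV over tested members was 4.82% for astrocyte genes, 5.32% for microglia, 5.46% for pan-neuronal genes and 5.65% for oligodendrocyte genes, against 7.51% over all tested genes. It was 7.37% for AMPA and 11.7% for NMDA subunits, 16.1% for neuropeptides, 25.1% for meningeal fibroblasts and 37.1% for blood. CV falls with abundance, and the abundance of these lists differs, so these medians are descriptions and were not tested against each other.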

How the data were processed

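PolyA-selected RNA was sequenced as 100-base pairs. The authors aligned reads with GSNAP to NCBIM37 (mm9), kept uniquely placed concordant pairs and deposited counts per Ensembl 65 gene made with HTSeq 0.6.1. The kit does not mark strand, so overlapping and antisense genes cannot be told apart there.

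From the deposited counts of the 5 CC libraries, TPM were computed with the union of exonic bases as length. Libraries held 39992029 to 62555543 reads in genes. Spread was tested by goodness of fit in edgeR 4.0.16 (R 4.3.3), with upper-quartile factors, an intercept alone, genes with a mean of more than 10 reads, and Benjamini-Hochberg adjustment at 0.01. It was tested at the trended dispersion and, for counting error, at dispersion 0. The methods were tested on simulated data. The alternatives were other normalizations and filters, a common dispersion, DESeq2 1.42.0 dispersion outliers, the longest transcript as length, nuclear genes alone, and leaving out each library. Windows of 100 bases along exons were searched in mm9.

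The gene lists and the genes described were chosen with earlier results of these data known. By rule, the text names the 20 nuclear genes with the highest mean, mitochondrial genes, up to 6 leading members and the widest member of each list, 20 variable and 10 steady genes, and Fos, Arc, Egr1 and Npas4. Other genes were chosen after their values were seen, and some genes that meet the rule are not reported here. The other 10 libraries of the series were not used here.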

Additional observations from a re-analysis of the deposited data

Results flagged for a closer look

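In a group of 5, a library was marked when its gap to the nearest other library, divided by the whole range, was above 0.71. Of 189 values examined, 36 or 19.05% passed. The values were genes and summed lists named in the text and measures of whole libraries, such as the read total. No measure of whole libraries passed. Chance alone marks about 1 in 20, and the genes were chosen with the data known and share libraries, so the marks are not independent.

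CC5 stood apart as the highest library, with a share of the range of 0.947 for Trh, 0.877 for Ptgds, 0.814 for Aebp1, 0.813 for the summed level of the meningeal fibroblasts list, 0.807 for Hbb-b1, 0.803 for Slc13a4, 0.766 for the summed level of the blood list, 0.729 for the summed level of the interferon response genes list and 0.713 for Grin2d. CC8 stood apart as the highest library, with a share of the range of 0.951 for mt-Co2, 0.945 for mt-Atp6, 0.914 for mt-Nd4l, 0.908 for mt-Co3, 0.904 for Gm10925, 0.846 for Grik4, 0.837 for Gria1, 0.773 for Foxj1 and 0.731 for Camk2a. CC8 stood apart as the lowest library, with a share of the range of 0.886 for Grp, 0.836 for Mpped1, 0.828 for Ctgf, 0.811 for Chrna4, 0.806 for Slc17a6, 0.792 for Tshz2, 0.781 for Nov and 0.752 for Grm8. CC7 stood apart as the highest library, with a share of the range of 0.944 for 7SK, 0.92 for AY036118, 0.901 for AC113316.1, 0.885 for Lars2 and 0.877 for mmu-mir-689-2. CC3 stood apart as the highest library, with a share of the range of 0.855 for mt-Atp8 and 0.712 for Fos. CC3 stood apart as the lowest library, with a share of the range of 0.834 for Kcnh3. CC6 stood apart as the highest library, with a share of the range of 0.771 for Ppp1r1b and 0.726 for Cpe. The range behind these shares was wide for some genes and narrow for others. Trh ran from 16.1 to 408.9 normalised counts, whereas Grin2d ran from 1389 to 1500.0 and Gria1 from 62695 to 71446. The causes were not tested.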

How the results depend on the processing

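The count of genes more variable than the trend was 248. It was 254 with TMM factors and with DESeq2 size factors, 263 with the total count alone, 252 with no filter on low counts, 228 with more than 10 reads in every library and 193 as DESeq2 dispersion outliers. A common dispersion gave 391. Leaving out a library gave 154 to 229, with 155 without CC5 and 154 without CC8. The count beyond counting error was 8033 to 8217 under other normalizations and filters and 6699 to 7664 with a library left out. The biological coefficient of variation was 0.0707 to 0.0824 with a library left out, lowest without CC8. With reads in nuclear genes alone, the 10, 100 and 1000 genes with most reads took 3.12%, 15% and 47.4% of reads, against 5.43%, 18.1% and 49.6% of all reads. The cause of the other changes was not tested. Of the 52 called genes named in the text, 1 (Shisa6) lost the call under another normalization or filter, and 42 lost it without at least 1 library. Of 182 genes named, 10 had a level that moved by over 1.5 times with the longest transcript, the largest 2.57 times, and 13 by over 1.5 times with a library left out. No paired analysis was possible because the 5 libraries form a single group. Read depth limits the low genes, and reads placed uniquely undercount genes with copies.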
